A study of Mus musculus with 6 samples.

Results

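Eda2r, the receptor for the A2 form of ectodysplasin, was followed in mouse femur after focal radiation together with 7 genes of ectodysplasin and death receptor signalling. The members were 8 of the 43346 genes in the deposited count table, taken by gene name. They comprise the receptors Eda2r, Edar, Fas and Tnfrsf10b, the ligands Eda, Fasl and Tnfsf10, and the adaptor Edaradd. They were chosen with the difference of Eda2r between radiated and non-radiated femur already known, so that contrast is given for them as a description. Members called in a test over all genes are counted below, and nothing is read from that count. All 8 passed the filter on low counts.

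The animals were C57BL/6 mice, 4 months old, with no other genotype given in the labels. The right femur of each mouse received 24 Gy (gray, the unit of absorbed dose) at 6.6 Gy per minute over 5 mm of its distal metaphysis, and the left femur, without radiation, was the control. Both groups therefore come from mice that had been radiated in a leg. The bone pieces were cut out on day 21, ahead of a bone loss seen at day 28, cleared of muscle and homogenized, for 3 libraries of radiated and 3 of non-radiated femur. Each group's libraries carry the numbers 1 to 3. Whether a number stands for a mouse, or the libraries for separate mice, is not stated in the labels, so the spread between them may in part be technical.

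Receptors of the tumour necrosis factor (TNF) family sit in the cell membrane and are clustered by trimeric ligands. Fas and Tnfrsf10b carry a death domain in the cell, through which they bind Fadd and recruit caspase-8, the start of the extrinsic pathway of apoptosis. Edar, best known from the development of hair, teeth and sweat glands, also carries a death domain, but couples through Edaradd to NF-kB. Eda2r, also called XEDAR, lacks a death domain and signals through TRAF proteins to NF-kB and JNK. Eda2r, Fas and Tnfrsf10b are known as genes that the tumour suppressor p53 can switch on after DNA damage.

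Edar and Eda2r are served by the same gene, Eda, whose transcripts differ in 6 bases at the end of an exon. The form with these bases, A1, binds Edar, and the form without them, A2, binds Eda2r. The stretches shown are coding sequence across that junction from GENCODE M21 (GRCm38, plus strand of chromosome X, exon ends at 100395149 and 100395143, next exon from 100396905), with the 6 bases in capitals. They are shown because a count per gene cannot tell which of the ligands was measured.
Eda-206: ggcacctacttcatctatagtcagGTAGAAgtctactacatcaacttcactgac
Eda-205: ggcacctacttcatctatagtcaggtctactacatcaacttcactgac
Of the 9 coding Eda transcripts in that annotation, 3 end the exon as Eda-206 does and 2 as Eda-205 does. All values for Eda below are sums over these forms.

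Totals were 34034251 to 48708383 gene counts per library, and 23427 to 25304 genes had a count in a library. In non-radiated library 2 the row AY036118 took 32.9% of the counts, against 0.321% to 5.61% in the other libraries, and its TMM factor was 0.722 against 1.03 to 1.10. Values are in CPM, counts relative to library size, with library sizes scaled by the trimmed mean of M-values (TMM). Markers of the labelled tissue were present in every library, with summed levels of 4578 to 6934 CPM in the controls and 3403 to 4325 CPM in radiated femur for 9 osteoblast and osteocyte genes, led by Col1a1 and 2 of them called lower, and 5579 to 6455 CPM for 6 erythroid genes, led by Slc4a1. In whole bone, a change in the number of cells of a type and a change in RNA per cell cannot be told apart. The quasi-likelihood test of edgeR covered 18757 genes and gave an adjusted p under 0.05 for 7.80% of them, 4.56% higher and 3.24% lower in radiated femur. With library totals as the only scaling, 1000 genes were called, 854 of them higher, against 856 of 1463 with TMM, and the log2 fold changes had a median of 0.19 in place of 0.00.

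Eda2r (ENSMUSG00000034457, chromosome X, 97333840 to 97377216) differed most between the groups among the members. It was counted 21, 21 and 30 times in non-radiated libraries 1, 2 and 3, which is 0.576, 0.838 and 0.708 CPM. In radiated libraries 1, 2 and 3 it was counted 310, 414 and 323 times, which is 8.19, 7.75 and 7.24 CPM. Every radiated library was thus far above every non-radiated one. The coefficient of variation was 6.16% in the radiated libraries against 18.5% in the controls. The control values rest on 21 to 30 counts, where counting noise alone is larger in relative terms. The spreads are thus not read as a difference in uniformity between the groups. The fitted log2 difference was 3.46 (SE 0.17), an 11.0-fold higher level, which ranked Eda2r 16 among the 18757 genes tested. Matched by number, the differences were 3.72, 3.13 and 3.27 on the log2 scale. Across 14 alternative fits the difference ran from 3.33 to 3.66.

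Edar, the other ectodysplasin receptor (ENSMUSG00000003227, chromosome 10, 58600789 to 58675654), was far less unlike between the groups. Its levels were 1.18, 1.56 and 1.84 CPM in control libraries 1, 2 and 3 and 2.32, 1.65 and 1.64 CPM in the radiated ones. The groups overlapped, and radiated library 1 alone was above all others. The log2 difference was 0.28 (SE 0.23), and by number it was 0.95, 0.08 and -0.17.

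Edaradd, the adaptor that links Edar to NF-kB (ENSMUSG00000095105, chromosome 13, 12471209 to 12520450), was at 8.67, 8.30 and 8.38 CPM in non-radiated libraries 1, 2 and 3. In the radiated libraries it was at 14.6, 12.4 and 15.3 CPM, all above the control libraries, whose coefficient of variation was 2.27%. The log2 difference was 0.74 (SE 0.10), or 1.67-fold. In radiated femur the adaptor thus stood higher, and the receptor it serves overlapped between groups. Divided by gene length, Edaradd stood at 3.30, 2.39 and 2.04 times Edar in non-radiated libraries 1, 2 and 3. In the radiated libraries it stood at 2.83, 3.39 and 4.21 times, so this ratio overlapped too.

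Eda, the ligand gene (ENSMUSG00000059327, chromosome X, 99975606 to 100400762), was at 3.73, 2.95 and 2.97 CPM without radiation and 3.83, 3.09 and 2.87 CPM with it, in libraries 1, 2 and 3. The groups overlapped almost wholly, and in both of them library 1 was the highest. The log2 difference was 0.01 (SE 0.17) and changed sign between fits, from -0.11 to 0.19. The gene spans 4 small genes of the table, Gm14832, Gm14829, Gm14828 and Mir676, none with more than 20 counts in a library.

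**Figure D1:**
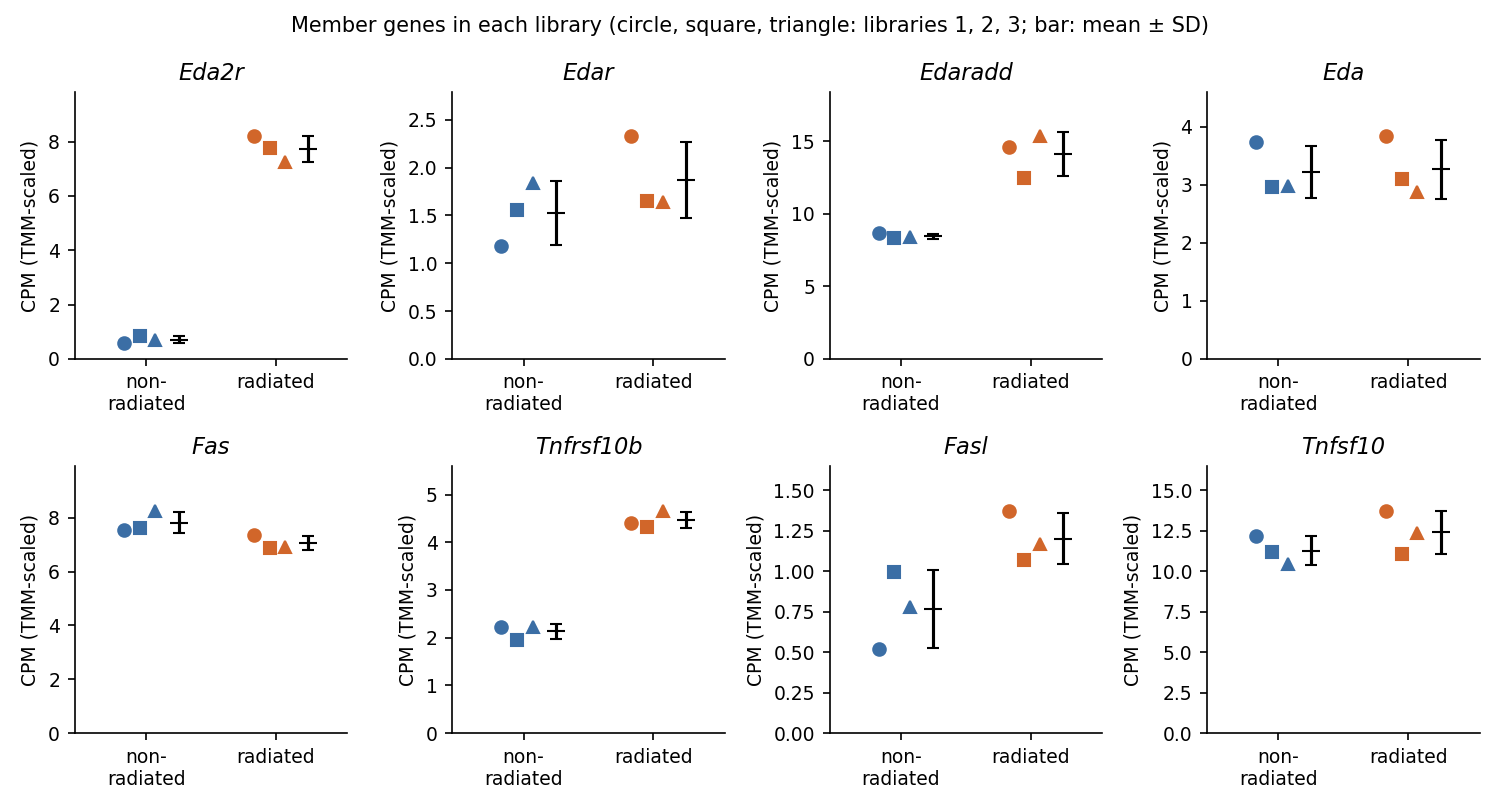
Level of each member (y axis, TMM-scaled CPM, from 0) in the 3 non-radiated (blue) and 3 radiated (orange) libraries, with the mean and SD of each group beside the points. Eda2r, Edaradd, Tnfrsf10b and Fasl were higher in all radiated libraries, Fas was lower in all of them at this scaling, and Edar, Eda and Tnfsf10 overlapped.

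Fas, the receptor of the Fas ligand (ENSMUSG00000024778, chromosome 19, 34290659 to 34327770), did not share the direction of Eda2r under TMM. Its levels were 7.54, 7.63 and 8.26 CPM in control libraries 1, 2 and 3 and 7.34, 6.89 and 6.92 CPM in the radiated ones. The radiated values lay just below the control values, with a gap between 7.34 and 7.54 CPM. The log2 difference was -0.15 (SE 0.10) and turned to 0.040 (SE 0.26) when libraries were scaled by their totals. The gene spans Gm27818, which had 4 to 14 counts in a library.

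Tnfrsf10b, the receptor of TRAIL (ENSMUSG00000022074, chromosome 14, 69767472 to 69784403), was the member next to Eda2r in the size of its difference. Its levels were 2.22, 1.96 and 2.22 CPM in non-radiated libraries 1, 2 and 3. In the radiated libraries they were 4.41, 4.33 and 4.66 CPM, each above every control. The log2 difference was 1.06 (SE 0.13), a 2.09-fold higher level, and ran from 0.99 to 1.24 over the alternative fits. By number the differences were 0.97, 1.12 and 1.05.

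Fasl, the Fas ligand of cytotoxic lymphocytes (ENSMUSG00000000817, chromosome 1, 161780689 to 161788495), rested on few counts, 19, 25 and 33 without radiation and 52, 57 and 52 with it. Its levels were 0.521, 0.998 and 0.779 CPM in control libraries 1, 2 and 3 and 1.37, 1.07 and 1.17 CPM in the radiated ones. The groups did not overlap, but non-radiated library 2 and radiated library 2 lay close together. The log2 difference was 0.67 (SE 0.26), and by number it was 1.32, 0.09 and 0.55. Tnfsf10, which encodes TRAIL (ENSMUSG00000039304, chromosome 3, 27317028 to 27342427), was at 12.2, 11.2 and 10.5 CPM and at 13.7, 11.1 and 12.4 CPM in the same order. Its groups overlapped, and the log2 difference was 0.14 (SE 0.11).

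Of the 8 members, 3 had an adjusted p under 0.05 in edgeR's fit over all genes, Eda2r, Edaradd and Tnfrsf10b, each higher (4.56% of all genes tested were called higher). Groups did not overlap for 5 members, 4 higher and Fas lower, where 14.4% and 11.5% of all genes tested did not overlap in those directions. Nothing is read from these counts, since the contrast had a part in choosing the members.

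The make-up of the receptor transcripts does not rest on any scaling between libraries. Divided by gene length, Fas held 78.9%, 78.1% and 77.6% of the summed level of the 4 receptors in control libraries 1, 2 and 3 and 54.4%, 55.0% and 55.0% in the radiated ones. Eda2r held 1.84%, 2.63% and 2.03% without radiation and 18.5%, 18.9% and 17.6% with it. The share of Tnfrsf10b was 12.1% ± 0.944 and 19.7% ± 1.24 (SD, n = 3 libraries per group), and that of Edar 7.52% ± 1.27 and 7.16% ± 1.19. Fas was the main receptor transcript in all 6 libraries, and Eda2r went from the smallest share in each control library to a share near that of Tnfrsf10b. Among the ligands the shares moved less, with Tnfsf10 at 71.1% ± 2.52 and 68.2% ± 1.32, Eda at 15.7% ± 1.68 and 13.8% ± 1.2, and Fasl at 13.2% ± 4.19 and 18.0% ± 0.290.

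**Figure D2:**
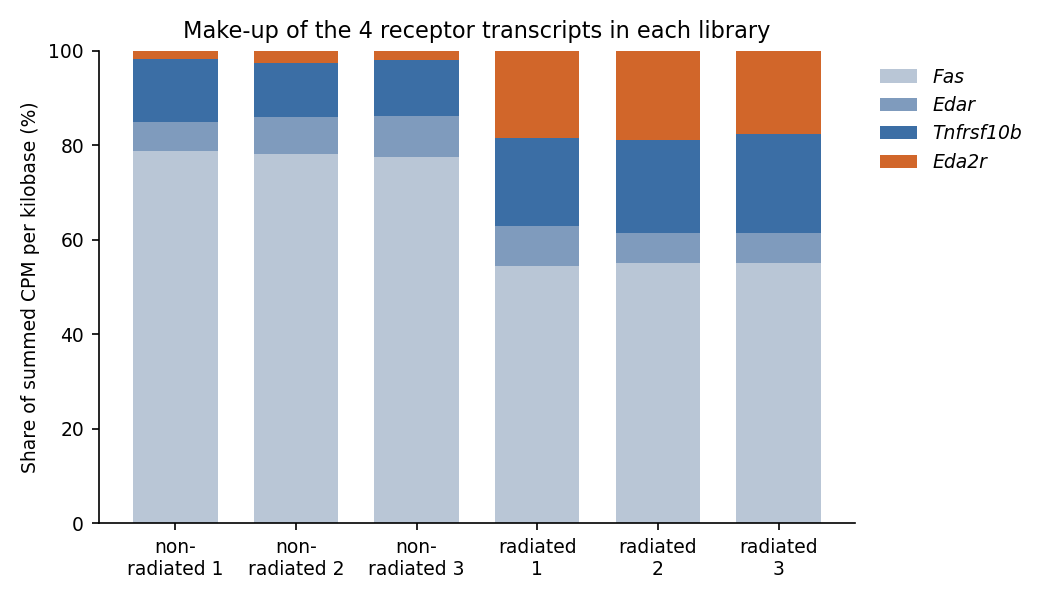
Share of each receptor transcript (y axis, percent of the summed CPM per kilobase of Fas, Edar, Tnfrsf10b and Eda2r) in each of the 6 libraries. The orange part, Eda2r, lies between 1.84% and 2.63% in the control libraries and between 17.6% and 18.9% in the radiated ones.

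Ratios within a library, on the scale of CPM per kilobase, do not rest on scaling between libraries either. Against their ligand genes, Eda2r and Tnfrsf10b stood higher in radiated femur and Fas stood lower. Eda2r stood at 0.179, 0.329 and 0.276 times the level of Eda in non-radiated libraries 1, 2 and 3, and at 2.48, 2.91 and 2.92 times in the radiated ones. Against Edar, Eda2r stood at 0.290 ± 0.0484 times in the controls and 2.60 ± 0.381 times in radiated femur (mean ± SD, n = 3). Eda2r thus stood below both Eda, summed over its forms, and Edar in each control library. In each radiated library it stood above both. Tnfsf10 was at 3.20 ± 0.317 times the level of its receptor Tnfrsf10b without radiation and 1.67 ± 0.178 times with it. Fas was at 11.7 ± 3.69 and 6.36 ± 0.597 times the level of Fasl.

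In order of level per kilobase, non-radiated femur had Fas at 4.34 ± 0.218 CPM per kilobase, Tnfsf10 at 2.14 ± 0.167, Edaradd at 1.04 ± 0.0237 and Tnfrsf10b at 0.672 ± 0.0480. Eda, Edar and Fasl followed at 0.472 ± 0.0648, 0.419 ± 0.0912 and 0.395 ± 0.123, and the ranges of these neighbours overlapped. Eda2r was last at 0.120 ± 0.0223, below the whole range of Fasl. In radiated femur the first 4 kept their places, at 3.92 ± 0.140, 2.35 ± 0.253, 1.74 ± 0.186 and 1.41 ± 0.0549. Eda2r came next at 1.31 ± 0.0808, its range overlapping that of Tnfrsf10b, and above Fasl, Edar and Eda at 0.621 ± 0.0807, 0.514 ± 0.108 and 0.478 ± 0.0738, which overlapped as neighbours. All orders were the same by library totals and by the authors' deposited RPKM.

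**Figure D3:**
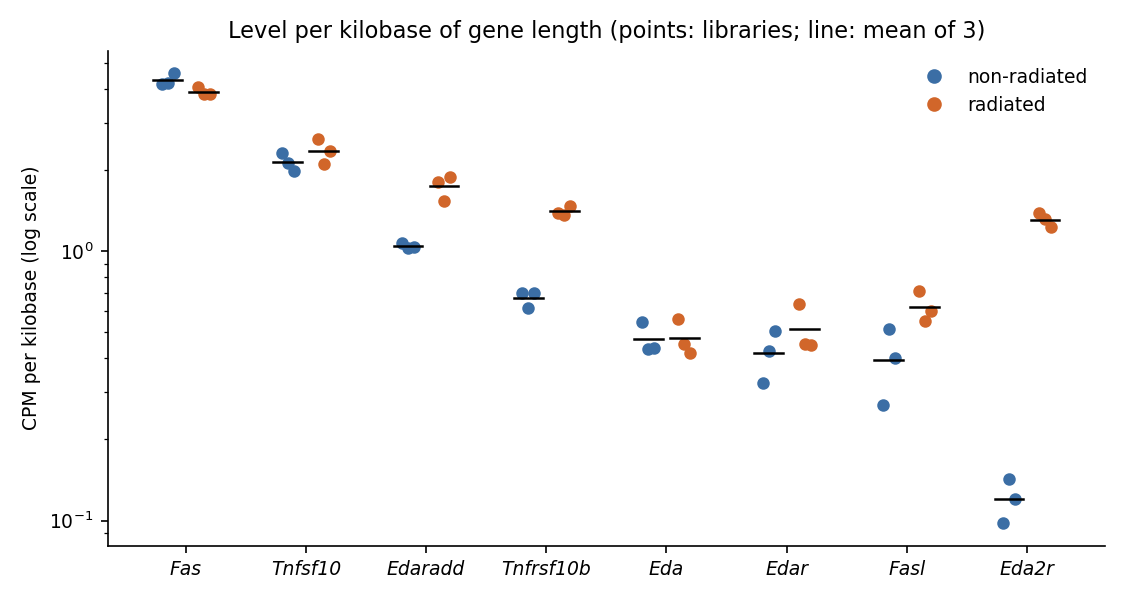
Level of each member per kilobase of gene length (y axis, CPM per kilobase, log scale) in non-radiated (blue) and radiated (orange) libraries, with the mean of each group as a line. Eda2r moves from the lowest place, 0.120, to 1.31 CPM per kilobase, beside Tnfrsf10b, while Fas stays highest in both groups.

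To set the members in their pathway, 5 lists of other genes were counted in the same fit, against 7.80% called and a median log2 fold change of 0.00 over all genes tested. Of 26 other p53 targets, 9 were called and all 9 were higher, with a list median of 0.25. Cdkn1a, the gene of p21, which halts the cell cycle, stood at 8.80, 7.43 and 7.93 CPM in the control libraries and at 33.1, 30.0 and 31.2 CPM in the radiated ones. Its rise was 1.96 in log2 units (SE 0.09, adjusted p 5.94e-06 by edgeR). Phlda3, an inhibitor of Akt signalling, rose by 2.31 (SE 0.13, edgeR adjusted p 1.43e-05), from 2.43 ± 0.157 to 12.1 ± 1.28 CPM. Zmat3, an RNA-binding protein, rose by 1.09 and Ccng1, cyclin G1, by 0.51 (edgeR adjusted p 1.68e-05 and 0.000602). These 4 were called in all 14 alternative fits.

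The rises of Plk2, Polk, Tigar and Gdf15 were smaller in evidence, at log2 fold changes of 0.59, 0.32, 0.42 and 0.88 and edgeR adjusted p of 0.0308, 0.0385, 0.0434 and 0.0439. Each of these 4 calls was lost on leaving out any of non-radiated libraries 1 and 2 and radiated libraries 1 and 3, which left 4 calls in the list. Plk2, Tigar and Gdf15 were also lost without radiated library 2 (6 calls) and Tigar without non-radiated library 3, and 5 calls of the list stood under library totals. The muscle covariate ended the calls of Polk, Tigar and Gdf15 (adjusted p 0.0511, 0.177 and 0.0970). Their adjusted p reached 0.0853, 0.243, 0.177 and 0.115 over the alternatives. Mdm2, the main inhibitor of p53 and itself a p53 target, was at 83.9 ± 0.774 and 93.6 ± 7.22 CPM, with no overlap between groups and no call (log2 fold change 0.16, edgeR adjusted p 0.176). Among these targets, the largest log2 fold change, 2.31 for Phlda3, lay below the 3.46 of Eda2r, and that of Tnfrsf10b, 1.06, lay near that of Zmat3. Fas, at -0.15, lay below all but 1 of the 26.

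The complex that death receptors build, with its caspases, had the narrowest range of the 5 lists. None of its 21 genes was called by edgeR, DESeq2 or limma-voom with all 6 libraries. By edgeR 1 had an unadjusted p under 0.05, where 4040 of all 18757 genes tested did. Log2 fold changes of the list ran from -0.20 to 0.20 around a median of -0.02. With non-radiated library 3 left out, 1 gene of the list was called, as lower. Fadd, the adaptor of Fas and Tnfrsf10b, was at 14.4 ± 0.680 and 13.9 ± 1.03 CPM in non-radiated and radiated femur. Casp8, the initiator caspase, was at 63.9 ± 5.52 and 67.7 ± 4.27 CPM, and Cflar, its inhibitor, at 170 ± 5.53 and 168 ± 8.19 CPM. The edgeR adjusted p of Fadd, Casp8 and Cflar were 0.841, 0.587 and 0.929.

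Of 25 genes of NF-kB signalling, on which both ectodysplasin receptors act, 4 rose and 1 fell, with a median of 0.10. Tnfaip3, which encodes the feedback inhibitor A20, was at 35.1, 34.6 and 36.4 CPM in non-radiated libraries 1, 2 and 3 and at 46.3, 44.5 and 46.5 CPM in the radiated ones. It rose by 0.37 (SE 0.06, edgeR adjusted p 0.00527) and was called in 13 of 14 alternatives, the exception being library totals alone (adjusted p 0.133). Nfkbie, an inhibitor of NF-kB, Traf1, a signalling adaptor, and Birc3, a ubiquitin ligase, rose by 0.43, 0.64 and 0.25 (edgeR adjusted p 0.0150, 0.0198 and 0.0307). Tab3, which helps activate the kinase Tak1, fell by 0.24 (edgeR adjusted p 0.0444).

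The calls of these last 4 were each lost on leaving out any of non-radiated libraries 1 and 2 and radiated library 1, which left Tnfaip3 as the only call of the list. Leaving out radiated library 2 (Traf1 and Tab3 lost) or 3 (Birc3 and Tab3 lost) left 3 calls, the muscle covariate 2 and library totals 1, and Birc3 was lost without non-radiated library 3. Their highest adjusted p were 0.0831, 0.0897, 0.295 and 0.917. Nfkb2 and Relb, the subunits of the non-canonical NF-kB pathway, were higher in all radiated libraries, with log2 fold changes of 0.32 and 0.43 and edgeR adjusted p of 0.0548 and 0.0654. With the replicate number as a block they were called (0.0386 and 0.0479), as they were when non-radiated library 3 was left out (0.0184 and 0.0195), with no filter on low counts (0.0212 and 0.0308) and by DESeq2's Wald test (0.0159 and 0.0202). With the block, Birc3 and Tab3 were not called (0.0522 and 0.0709). Map3k14, the kinase at the head of that pathway, and the adaptors Traf3 and Traf6, of which Traf6 binds Eda2r, had log2 fold changes of 0.12, 0.08 and 0.10 (edgeR adjusted p 0.580, 0.492 and 0.474).

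**Figure D4:**
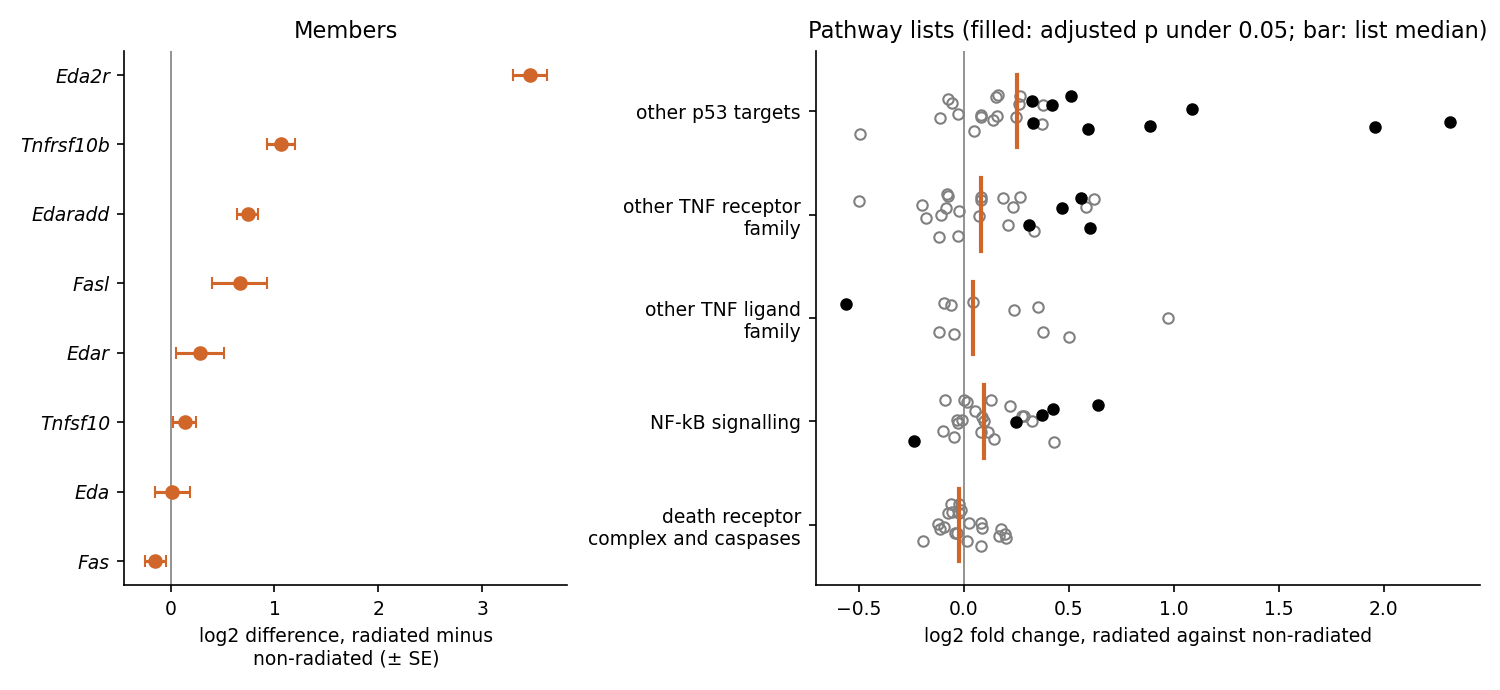
Left, log2 difference of each member with its SE. Right, log2 fold change of every tested gene in 5 pathway lists, filled where the adjusted p was under 0.05, with the list median as an orange bar. Eda2r, at 3.46, lies beyond every gene of the lists, and the genes of the death receptor complex lie between -0.20 and 0.20.

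Among 24 other receptors of the TNF family, all tested, 4 rose and none fell, with a median of 0.08. Tnfrsf13c, the BAFF receptor of B cells, rose by 0.60 (SE 0.10, edgeR adjusted p 0.00795), from 15.7 ± 1.57 to 23.9 ± 2.45 CPM, and was called in all 14 alternatives. Cd40, a receptor of B cells and macrophages, Tnfrsf11a, the RANK receptor of osteoclast precursors, and Tnfrsf13b, the TACI receptor of B cells, rose by 0.56, 0.47 and 0.31 (edgeR adjusted p 0.0297, 0.0178 and 0.0469). Those 3 calls were lost on leaving out any of non-radiated libraries 1 and 2 and radiated library 1, and under library totals, which each left 1 call, and their adjusted p reached 0.117, 0.0827 and 0.249. Without radiated library 3 the list had 2 calls, with Cd40 and Tnfrsf13b lost, and Tnfrsf13b was lost without non-radiated library 3. Tnfrsf13b was also lost with DESeq2 size factors (0.0530) and with limma-voom (0.0557), and was called in 6 of 14 alternatives. The summed level of 8 B cell markers, led by Ebf1, was 436 to 474 CPM in the controls and 702 to 846 CPM in radiated femur, with all 8 called higher, and its part in these rises was not tested.

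Tnfrsf22 and Tnfrsf23, decoy receptors that bind TRAIL without a death domain, were at 3.19 ± 0.392 and 4.80 ± 0.365 CPM in the controls and 3.16 ± 0.452 and 4.70 ± 0.476 CPM in radiated femur. Osteoprotegerin, Tnfrsf11b, which binds TRAIL as well as RANK ligand, was at 9.16 ± 1.69 and 8.0 ± 1.03 CPM. Tnfrsf19, also called Troy, a close relative of Edar, was at 40.4 ± 6.62 and 51.0 ± 4.83 CPM (log2 fold change 0.33, edgeR adjusted p 0.135, 0.0250 with the replicate block, 0.0404 with no filter and 0.0389 by DESeq2's Wald test). Tnfrsf1a, the death-domain receptor of TNF, was at 78.4 ± 4.38 and 72.6 ± 5.22 CPM. The edgeR adjusted p of Tnfrsf22, Tnfrsf23, Tnfrsf11b and Tnfrsf1a were 0.954, 0.931, 0.512 and 0.403. Of 15 other ligands of the family 11 passed the filter, with a median of 0.04. Of these, Tnfsf14, the cytokine LIGHT, was called, with -0.56 in log2 units (SE 0.12, adjusted p 0.0220 by edgeR), from 12 ± 0.986 to 8.13 ± 1.0 CPM. Its call was lost on leaving out non-radiated library 2, non-radiated library 3 or radiated library 3 (adjusted p 0.0716, 0.0529 and 0.0548) and under library totals alone (0.606).

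Markers of cells that could carry the members were summed in each library. The 16 skeletal muscle markers, led by Myh4, came to 211, 371 and 182 CPM in non-radiated libraries 1, 2 and 3 and to 802, 2649 and 216 CPM in the radiated ones. By edgeR 15 of them had an unadjusted p under 0.05 (4040 of all 18757 genes tested did). Their lowest edgeR adjusted p was 0.0834, for Atp2a1. Radiated library 3 had a muscle sum inside the range of the controls, with 7.24 CPM of Eda2r, 4.66 CPM of Tnfrsf10b and 15.3 CPM of Edaradd. With the logarithm of the muscle sum as a covariate, the log2 differences of Eda2r, Tnfrsf10b and Edaradd were 3.39, 1.13 and 0.87. Adipocyte markers, 9 genes led by Fabp4, came to 104 to 113 CPM and 202 to 272 CPM, with 8 called higher. Gene by gene their log2 fold changes had a median of 3.03 and ran from 0.54 to 3.96. The sum, weighted to its most abundant genes, does not show rises of that size. For the members, only the differences from the fit with the muscle covariate are given. The part of either list in the differences of the members was not tested.

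The 14 T and NK cell markers, led by Cd4 and set beside Fasl, came to 85 to 93.4 CPM in the controls and 92.1 to 104 CPM in radiated femur. Of the 14 genes, 12 had a positive log2 fold change and 2 a negative one, with a median of 0.37. By edgeR 8 had an unadjusted p under 0.05, where 4040 of all 18757 genes tested did. Among them Gzma, a granule protease named here after its value was seen, was the 1 gene called (log2 fold change 0.69, edgeR adjusted p 0.0275). Markers of surface epithelium, set beside Edar, summed to 11.0 to 12.1 and 9.12 to 9.78 CPM and were led by Cdh1, while Krt14 and Krt15 were at 0 in all libraries. Of the 5 tested, 3 had a positive log2 fold change and 2 a negative one, with a median of 0.23, so the lower sum does not stand for most of them. Trp63, also named after its value was seen, was the 1 called, at 0.159 ± 0.0918 and 0.607 ± 0.121 CPM (edgeR adjusted p 0.0268). Of the other marker lists, all 7 megakaryocyte genes, led by Ppbp, were called lower, and 7 of 8 macrophage genes, led by Csf1r, were called higher. Over all genes tested, 7.80% were called. All 7 neutrophil genes had a negative log2 fold change, with 1 called lower, and 1 of 5 endothelial genes was called lower. None of 7 osteoclast and 6 erythroid genes was called. The part of these lists in the differences of the members was not tested.

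**Figure D5:**
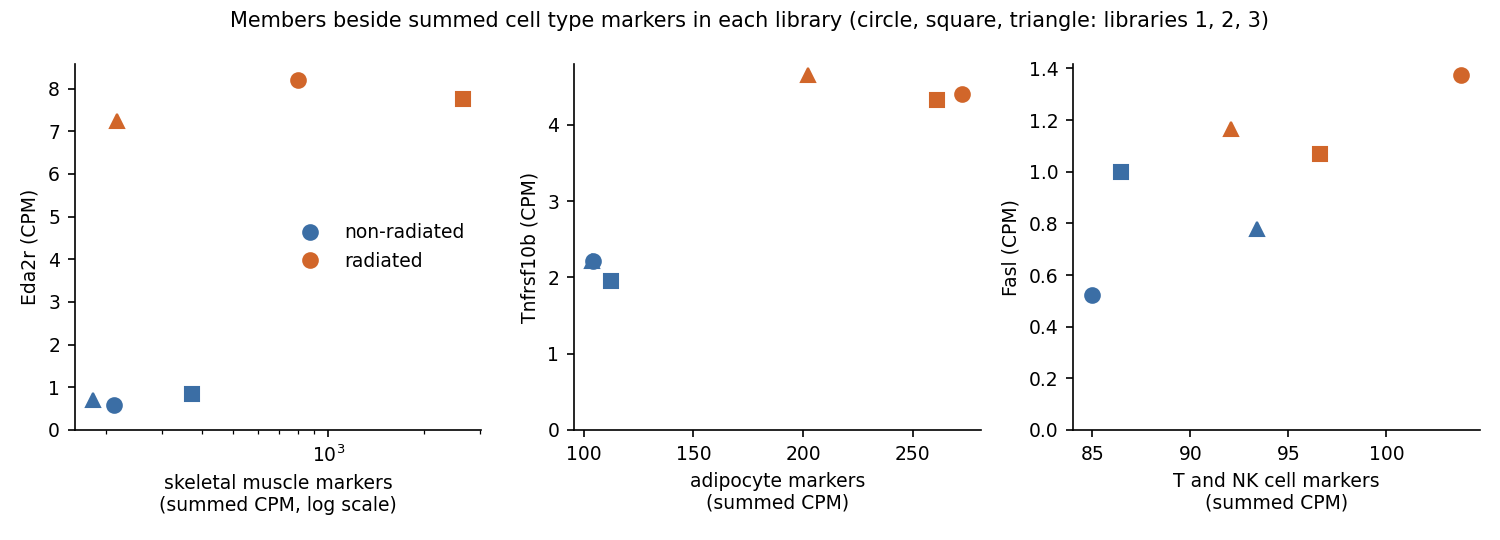
Levels of Eda2r, Tnfrsf10b and Fasl (y axes, CPM) against summed markers of skeletal muscle (log scale), adipocytes, and T and NK cells (x axes, CPM) in each library. Radiated library 3 (orange triangle) had a muscle sum of 216 CPM, inside the range of the controls, with Eda2r at 7.24 CPM.

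The genes whose log2 CPM ran most like that of Eda2r over the 6 libraries, among 15579 other genes that averaged 1 CPM or more, were Pck1, Klhdc7a, Pde4b, Phlda3 and Cxcl13, with Pearson r from 0.995 to 0.999. These r are descriptions over 6 libraries that share the split into groups, which sets most of their size. Pde4b had a log2 fold change of 0.43, and the other 4 of 2.31 to 3.69. For Tnfrsf10b the closest were Lgals12, Tmem108 and Yeats2 (r 0.999, 0.998 and 0.998), and for Edaradd C030037D09Rik, Txndc16 and Arntl (r 0.999, 0.998 and 0.996). Fas ran closest to Rasl11b, Gm13408 and Vdr (r 0.997, 0.995 and 0.993). For Eda they were Tuft1, Igkv4-57-1 and Cpq, for Edar Zswim4, Dbnl and Orai2, for Fasl Zfp747, 2010320M18Rik and Drg2, and for Tnfsf10 Heatr6, Srd5a1 and A430106G13Rik, with r from 0.977 to 0.996. Between members, r was 0.98 for Eda2r with Tnfrsf10b, 0.96 with Edaradd and -0.80 with Fas.

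Promoters of the members were also searched for motifs, in the 250 bases before each RefSeq start (GRCm38.p6). A window was held for 7 of the 8 members, all but Tnfrsf10b, which was among those called higher. The p53 decamer, the motif that p53 binds in pairs and which reads the same way on either strand, was searched for without mismatch and was found in 7.13% of all 32851 such windows. Of the 7 member windows 1 held it, that of Fasl. TATAAA on either strand was found in 12.4% of all windows and in 1 of the 7, that of Eda2r. The Eda2r window (chrX:97377210-97377459, minus strand) is shown as that of the member with the largest difference, with TATAAA in capitals, 58 to 53 bases before the start.
Eda2r: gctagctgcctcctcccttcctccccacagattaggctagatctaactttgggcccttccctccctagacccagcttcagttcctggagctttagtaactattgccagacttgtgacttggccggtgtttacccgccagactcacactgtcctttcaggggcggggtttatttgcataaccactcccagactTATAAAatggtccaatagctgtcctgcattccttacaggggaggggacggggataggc
The windows of Eda2r, Eda, Edar, Edaradd, Fas and Tnfsf10 held no p53 decamer in these letters, which says nothing of p53 binding there or elsewhere. For comparison, the stretch with the decamer of Fasl (chr1:161788591-161788620, minus strand) and that with 2 decamers before Cdkn1a (chr17:29090896-29090947, plus strand) are shown with the matches in capitals.
Fasl: gacctcaggcAGGCAAGCCTggtttaccag
Cdkn1a: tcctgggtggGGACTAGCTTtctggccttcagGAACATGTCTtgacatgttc
In base composition the member windows differed widely, with 46.0% G and C for Edaradd, 53.2% for Eda2r, 56.4% for Fas and 75.6% for Eda, around a median of 52.4% over all windows.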

How the data were processed

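Raw gene counts and RPKM were deposited by the authors in 1 table, in columns named for the libraries, per the file headers. The submitters' processing notes name bcl2fastq, STAR 2.5.2b, Subread, featureCounts and mm10, with no role for each. The use of strand and any filter are not given in the sources used here. Positions come from that table. The RPKM deposited by the authors entered no test and was used to check the order of levels.

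The test was that of edgeR 4.0.16 (R 4.3.3) on the counts: filterByExpr (minimum count 10, total 15), which left 18757 genes, TMM scaling, glmQLFit and glmQLFTest with group as the only term, and Benjamini-Hochberg adjustment over all genes tested. A gene is called at an adjusted p under 0.05. The SE is the size of the log2 fold change over the square root of F. The log2 CPM used for likeness and for differences by number have a prior count of 2. CPM per kilobase uses the gene length in the table. The fit was tested on simulated counts. Pairs of replicates differed by more than sampling noise (chi-square per degree of freedom 17.9 to 604). The highest values, 604 and 518, were those of the pairs with non-radiated library 2, in which AY036118 took 32.9% of the counts. The other non-radiated pair had 45.2. These values come from raw counts with that row included.

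Libraries with the same number deviated together from their group means (correlation across genes 0.166, 0.277 and 0.187 for numbers 1, 2 and 3, and -0.170 to -0.00824 for different numbers), so the pairing by number comes from this check and not from the labels. Alternatives were that block, DESeq2 1.42.0 size factors, library totals, no filter, a filter at 1 CPM on average, the Wald test of DESeq2, limma 3.58.1 (voom), the muscle sum as a covariate, and leaving out each library.

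The members and the gene lists were chosen with earlier results of these data known. Named were all members, up to 8 called genes per pathway list by smallest adjusted p, 16 set genes (1 of them is not reported here), the closest genes by Pearson r (5 for Eda2r, 3 for the others) and the most abundant gene of a marker list. Tigar and Adgre1 were matched through gene ID and all other listed genes by symbol.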

Additional observations from a re-analysis of the deposited data

How the results depend on the processing

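With library totals as the only scaling, the log2 difference of Eda2r was 3.66, and the counts of called genes were 1 for the other TNF receptors, 0 for the other ligands, 1 for NF-kB signalling and 5 for the other p53 targets. Fas (0.040), Fadd (0.15), Cflar (0.17), Tnfrsf1a (0.085), Tnfrsf22 (0.15) and Tnfrsf23 (0.17) then had positive log2 values. With the muscle covariate, NF-kB signalling had 2 calls, and Eda (-0.021), Cflar (0.049) and Tnfrsf22 (0.15) changed sign. Eda was at -0.0032 with limma-voom. The cause was not tested.

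With a library left out, calls over all genes ran from 764 to 1376, and in the lists from 1 to 4 (receptors), 0 to 1 (ligands), 0 to 1 (death receptor complex), 1 to 6 (NF-kB) and 4 to 10 (p53 targets). The log2 difference of Eda2r ran from 3.33 to 3.56, and values that changed sign ran from -0.11 to 0.13 (Eda), -0.10 to 0.0062 (Fadd), -0.051 to 0.027 (Cflar), -0.11 to 0.089 (Tnfrsf22) and -0.099 to 0.047 (Tnfrsf23). These fits have fewer samples.

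With the replicate block 1670 genes were called, and the log2 difference of Eda2r was 3.46. Beyond the calls given with their genes, it changed none of the named genes. With no filter on low counts 2073 genes were called. Eda2r, Edaradd and Tnfrsf10b kept their direction in all 14 alternatives. Eda2r and Fasl had at most 33 counts in a non-radiated library, which limits the precision of both.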
